A study of Mus musculus with 2 samples.

Results

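The RNA of 38 genes that carry glucose carbon through glycolysis, lactate exchange and the tricarboxylic acid (TCA) cycle was measured in mouse hippocampal tissue. The genes were taken by name and make up 38 of the 55536 annotated genes in the tables. By role they are 3 transporters, 15 genes of glycolysis, 2 of lactate dehydrogenase, 5 of pyruvate entry into the mitochondrion and 13 of the TCA cycle. A 39th gene entry also carries the name Aldoa (chromosome 7, 126800790 to 126809108). The Aldoa used here is the entry with more annotated transcripts (ENSMUSG00000030695.16, chromosome 7, 126795234 to 126800751).

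Total RNA came from tissue labelled as a layer of the hippocampus, from female mice of the strain B6CASTF1/J aged 36 days, with 300 ng of RNA and ERCC spike-ins per library. B6CASTF1/J mice are the first-generation offspring of a laboratory strain and a wild-derived strain, so each gene is present as alleles from both. The design held 1 group of 2 libraries, numbered as biological replicates 1 and 2, with no treatment or control. The labels give each library its own biosample but a single shared donor identifier, so the spread given is that between these samples, which may be technical.

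Glycolysis splits glucose into pyruvate in the cytosol, and lactate dehydrogenase interconverts pyruvate and lactate. Pyruvate dehydrogenase turns pyruvate into acetyl-CoA, which the TCA cycle oxidises to carbon dioxide while it charges the carriers that feed the respiratory chain. In the brain, glucose is the main fuel, and astrocytes and neurons are known to use different isozymes and transporters. Several steps are encoded by more than 1 gene, and these isozymes differ in the tissues and cell types where they are used.

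Each of the 38 genes reached 1 TPM in both libraries and so counted as detected, as did 26.3% of all annotated genes. TPM, a transcript's share of the library's RNA molecules on a fixed scale, is a level per length of RNA, so levels of different genes can be compared on it. It is that of the first of 2 deposited quantifications unless the second is named. The median level of the 38 genes stood at 91.0 in replicate 1 and 86.8 TPM in replicate 2, or 88.9 ± 2.95 TPM (mean ± SD, n = 2 libraries, as for all values below in this form). Over all detected genes the median was 12.7 ± 0.074 TPM, and 35 of the 38 genes lay above it. Against the detected nuclear protein-coding genes, 25 of the 38 stood at or above the 90th percentile. Together the genes took 0.838% of all counts in replicate 1 and 0.816% in replicate 2.

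The median level was 211 ± 10.7 TPM among glycolysis genes and 70.8 ± 3.65 TPM among TCA cycle genes. The ratio of those medians was 2.98 in both libraries. It was 56.6 ± 1.68 TPM among pyruvate entry genes and 15.5 ± 1.12 TPM among the transporters. Levels ran from 1075 ± 26.0 TPM for Aldoa to 2.82 ± 0.078 TPM for Hk2; in the second quantification Gapdh (3356 ± 343 TPM) stood above Aldoa (1877 ± 22.5 TPM). The 5 highest genes, Aldoa, Gapdh, Pkm, Eno2 and Aldoc, held 48.7% ± 0.11 of the TPM of all 38. In the order of levels, 27 of 37 neighbouring pairs had library values that did not overlap. The pairs that did overlap were Aldoc and Gpi1, Gpi1 and Tpi1, Idh3b and Ldha, Pdha1 and Cs, Pdhb and Idh3g, Idh3g and Idh3a, Dlst and Suclg1, Suclg1 and Dlat, Slc2a3 and Dld, and Idh2 and Pcx. The spread between libraries was small beside the whole range of levels, though not beside the gaps between these overlapping pairs. For any of the 38 genes the SD was at most 7.96% of the mean, with a median of 3.73%.

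**Figure D1:**
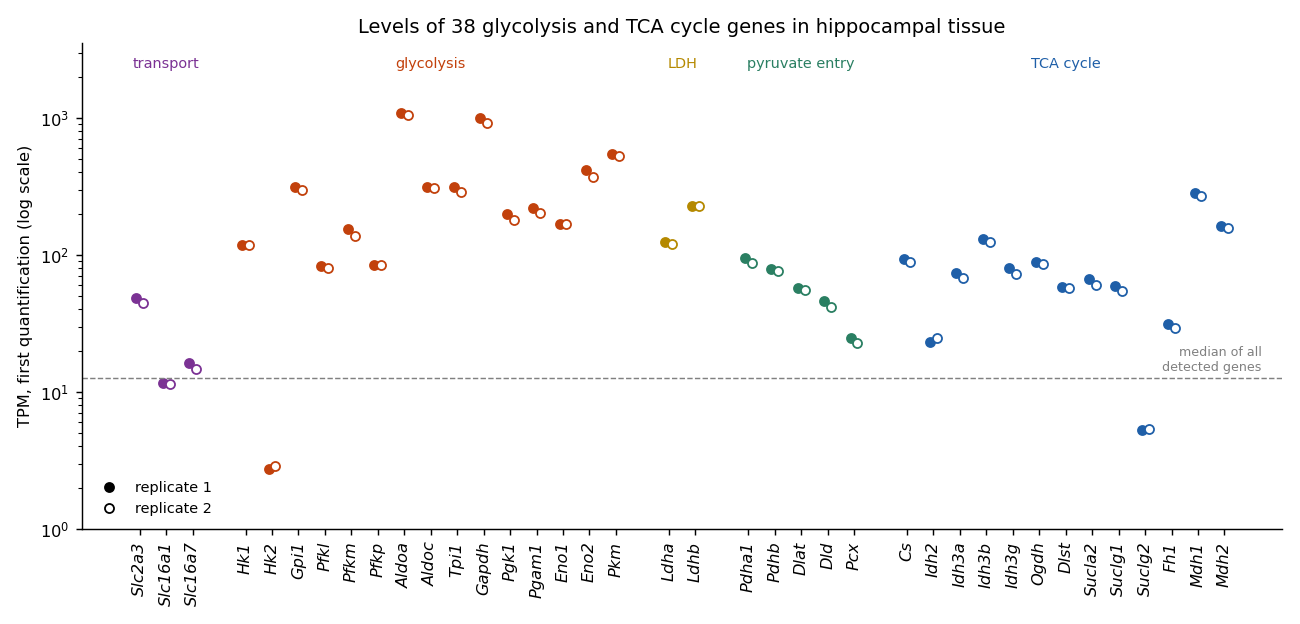
Level of each of the 38 genes in TPM of the first quantification, on a log axis, with replicate 1 filled and replicate 2 open; colours mark the roles and the dashed line the median of all detected genes. Aldoa, at 1075 ± 26.0 TPM, and Gapdh, at 955 ± 53.0 TPM, stand highest in this quantification (in the second, Gapdh lies above Aldoa), while Hk2, Suclg2 and Slc16a1 lie under the line.

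The libraries held 32299053 and 30010758 counts on annotated genes in replicates 1 and 2. Single members had 266 to 35491 counts, so counting alone gave the log2 ratio between libraries a standard error of 0.01 to 0.12. That error covers counting only. Markers of the labelled tissue were present: all 10 neuronal, 8 astrocyte and 8 hippocampal subfield markers were detected. All 8 oligodendrocyte, 8 microglial, 8 endothelial and 5 blood markers were detected too, so the tissue held several cell types. Choroid plexus markers set the libraries apart, since 3 of 8 were detected in both and their summed level was 26.7 TPM in replicate 1 against 1293 TPM in replicate 2. In bulk tissue, fewer cells of a type and less RNA per cell cannot be told apart.

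Of the transporters, Slc2a3, which encodes the neuronal glucose transporter GLUT3 (chromosome 6, 122727809 to 122801640), had 48.5 TPM in replicate 1 and 44.4 TPM in replicate 2. The monocarboxylate transporters carry lactate and pyruvate across membranes. Slc16a7, which encodes the high-affinity neuronal form MCT2, had 16.3 TPM in replicate 1 and 14.7 TPM in replicate 2. Slc16a1, which encodes the widely expressed MCT1, had 11.6 TPM in replicate 1 and 11.4 TPM in replicate 2. Slc16a7 thus stood above Slc16a1 in both libraries, by a ratio of 1.35 ± 0.076. In the second quantification the ratio was 1.81 ± 0.046, in the same direction. There, Slc16a7-204, a transcript of 711 bases, gave 15.3 of the 32.8 TPM in replicate 1 and 15.1 of the 31.4 TPM in replicate 2. It held only 96.9 of 2180 counts in replicate 1 and 93.1 of 1930 in replicate 2. Slc16a1 had 17.8 and 17.7 TPM there, so the ratio in the second quantification depends on that short transcript.

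Hexokinase traps glucose in the cell by phosphorylating it, and almost all of its RNA came from Hk1, the main brain form (chromosome 10, 62268855 to 62379908). Hk1 had 118.9 TPM in both libraries, while Hk2, the insulin-responsive form of muscle and fat, had 2.76 TPM in replicate 1 and 2.87 TPM in replicate 2. Hk1 therefore made up 97.7% ± 0.063 of the pair. Gpi1, which encodes glucose-6-phosphate isomerase, had 314 TPM in replicate 1 and 296 TPM in replicate 2.

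Phosphofructokinase, the committing and most regulated step of glycolysis, is built from 3 kinds of subunit. The muscle-type subunit gene Pfkm had 153 TPM in replicate 1 and 139 TPM in replicate 2. Pfkp, the platelet type, had 84.0 TPM in both libraries, and Pfkl, the liver type, had 83.5 TPM in replicate 1 and 80.1 TPM in replicate 2. Pfkm was thus the most abundant, at 46.8% ± 1.45 of the family, with Pfkp at 27.0% ± 1.12 and Pfkl at 26.2% ± 0.33. Pfkp and Pfkl were close: their library values did not overlap in TPM, but the second quantification put Pfkl, at 28.9% ± 0.97, above Pfkp, at 25.9% ± 0.70.

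Aldolase cleaves the doubly phosphorylated sugar into its triose products. Aldoa, the muscle and general form, was the most abundant of the 38 genes in the first quantification, and second to Gapdh in the other, at 1093 TPM (35491 counts) in replicate 1 and 1057 TPM (31818 counts) in replicate 2. Aldoc, the brain form that is typical of astrocytes and Purkinje cells (chromosome 11, 78322968 to 78327781), had 312 TPM in replicate 1 and 307 TPM in replicate 2. Aldoa therefore exceeded Aldoc by a ratio of 3.47 ± 0.041. Tpi1, which encodes the isomerase that interconverts the trioses, stood beside Aldoc with 311 TPM in replicate 1 and 290 TPM in replicate 2.

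The lower steps of glycolysis recover the energy as ATP and NADH. Gapdh (ENSMUSG00000057666.18, chromosome 6, 125161715 to 125166467), which encodes the NADH-forming dehydrogenase, had 992 TPM in replicate 1 and 918 TPM in replicate 2. Pgk1, the first ATP-forming kinase, had 199 TPM in replicate 1 and 179 TPM in replicate 2. Pgam1, a mutase that moves the phosphate, had 219 TPM in replicate 1 and 204 TPM in replicate 2. The mean Pgam1 level of 211 ± 10.7 TPM lay above that of Pgk1, 189 ± 13.98 TPM, and their library values did not overlap.

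Enolase forms the high-energy phosphate that pyruvate kinase uses. Eno2, the neuronal enolase gene (chromosome 6, 124760053 to 124769673), had 418 TPM in replicate 1 and 373 TPM in replicate 2. Eno1, the general form that astrocytes also use (chromosome 4, 150236721 to 150248879), had 167 TPM in replicate 1 and 169 TPM in replicate 2. Eno2 exceeded Eno1 by a ratio of 2.35 ± 0.21, and made up 71.5% of the pair in replicate 1 and 68.8% in replicate 2. In the second quantification the ratio was 2.11 ± 0.19. Eno1 shares long stretches of sequence with other genes, as described further on, and counts placed on those genes are not in these values. In the first quantification Eno1 had 7197 and 6885 counts in replicates 1 and 2, or 15298 and 14354 with its similar genes. Eno2 had 19507 and 16827 counts, so the size of its lead depends on how those reads were divided.

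Pkm encodes pyruvate kinase, the last step of glycolysis (ENSMUSG00000032294.17, chromosome 9, 59656368 to 59679375). It had 546 TPM in replicate 1 and 526 TPM in replicate 2, and ranked after Aldoa and Gapdh among the 38 genes. Its M1 and M2 forms differ by which of 2 neighbouring exons is spliced in. M1 is the constitutively active form of muscle and neurons, and M2 the allosterically regulated form known from proliferating cells and astrocytes. Each exon spans 167 bases on the plus strand and is exon 9 of its transcript. The exons are printed from the GENCODE M21 transcripts (GRCm38, the assembly of mm10) because they are the sequence that tells the forms apart, with capitals at the 64 of 167 positions where they differ. They lie at chr9:59675029-59675195 for M1 and at chr9:59675568-59675734 for M2.
Pkm M1 exon: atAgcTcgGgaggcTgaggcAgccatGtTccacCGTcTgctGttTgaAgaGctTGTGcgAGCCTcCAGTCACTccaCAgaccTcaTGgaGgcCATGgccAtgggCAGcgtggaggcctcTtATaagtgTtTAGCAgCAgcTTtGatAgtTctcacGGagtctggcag
Pkm M2 exon: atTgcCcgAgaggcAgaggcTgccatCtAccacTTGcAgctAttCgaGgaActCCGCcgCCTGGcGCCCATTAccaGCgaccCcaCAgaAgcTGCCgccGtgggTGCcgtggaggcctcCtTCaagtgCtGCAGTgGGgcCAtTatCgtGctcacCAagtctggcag
The exons were identical at 61.7% of positions, and the differing bases were spread along their length. The M1 transcript Pkm-202 had 282 TPM in replicate 1 and 269 TPM in replicate 2. The M2 transcript Pkm-201 had 250 TPM in replicate 1 and 241 TPM in replicate 2. M1 therefore took 52.9% ± 0.18 of the M1 and M2 total in the first quantification, but 47.0% ± 0.011 in the second, so the order of the forms depended on the quantification. Both quantifications gave each form close to an equal share. In the first, the other 9 annotated Pkm transcripts had at most 3.95 ± 0.30 TPM. In the second, the highest value among them was 23.4 TPM, for Pkm-206 in replicate 1, against 3.33 TPM in replicate 2. The 2 transcripts also differ in their first and last exons, so these values are not read from the exons alone.

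Lactate dehydrogenase is a tetramer of A and B subunits, whose genes are Ldha and Ldhb. Ldhb, known as the heart form, had 227 TPM in replicate 1 and 229 TPM in replicate 2. Ldha, the muscle form, had 125 TPM in replicate 1 and 119 TPM in replicate 2. Ldhb exceeded Ldha by a ratio of 1.87 ± 0.068 in the first quantification, which became 2.69 ± 0.60 in the second. The wide spread in the second came from Ldha, which had 208 TPM in replicate 1 and 287 TPM in replicate 2 there although its estimated counts were 4677 and 4263. In those tables the transcript Ldha-201 took 56.1% of the gene's TPM in replicate 1 and 23.4% in replicate 2, while the first quantification gave it 0 in both. Ldhb-202, of 437 bases, took 39.3% and 38.9% of the TPM of Ldhb in replicates 1 and 2 of the second. It held 537 of 5639 and 517 of 5485 counts there. In the first it took 20.5% and 19.8% of the TPM. The size of the Ldhb lead depends on this short transcript too: by counts of the first, Ldhb made up 56.6% ± 1.07 of the pair.

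The pyruvate dehydrogenase complex consists of E1, E2 and E3 enzymes. Of the E1 subunit genes, Pdha1 had 95.2 TPM in replicate 1 and 87.9 TPM in replicate 2, and Pdhb had 78.6 TPM in replicate 1 and 76.0 TPM in replicate 2. Dlat, the E2 acetyltransferase gene, had 57.8 TPM in replicate 1 and 55.4 TPM in replicate 2. Levels thus stepped down from E1 to E2 to E3 in both libraries: Dld, whose E3 product is shared with the oxoglutarate dehydrogenase complex, had 45.7 TPM in replicate 1 and 41.4 TPM in replicate 2. Pcx, which encodes the pyruvate carboxylase that refills the cycle and is known from astrocytes, was the lowest of the 5, at 24.8 TPM in replicate 1 and 22.7 TPM in replicate 2. In the second quantification this order did not hold throughout, since Dlat (142 TPM) lay above Pdhb (139.5 TPM) in replicate 1. Within E1, Pdha1 over Pdhb was 1.18 ± 0.039 in the first and 1.03 ± 0.058 in the second, where the libraries fell on both sides of 1.

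In the TCA cycle, Cs, the citrate synthase gene that opens it, had 93.7 TPM in replicate 1 and 89.2 TPM in replicate 2. The NAD-dependent isocitrate dehydrogenase is built from the products of Idh3a, Idh3b and Idh3g. Idh3b had 132 TPM in replicate 1 and 124 TPM in replicate 2, Idh3g had 80.9 TPM in replicate 1 and 73.2 TPM in replicate 2, and Idh3a, the catalytic subunit gene, had 73.4 TPM in replicate 1 and 68.2 TPM in replicate 2. Idh3b exceeded Idh3a by 1.81 ± 0.022. Idh2, the NADP-dependent mitochondrial enzyme, had 23.1 TPM in replicate 1 and 24.9 TPM in replicate 2, and lay under Idh3a by a ratio, Idh3a over Idh2, of 2.96 ± 0.31.

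Of the oxoglutarate dehydrogenase complex, the E1 gene Ogdh had 88.2 TPM in replicate 1 and 85.7 TPM in replicate 2, and the E2 gene Dlst had 58.0 TPM in replicate 1 and 57.7 TPM in replicate 2. Its E3 component, Dld, is given above. Succinyl-CoA synthetase pairs a common subunit, from Suclg1, with an ATP-forming subunit, from Sucla2, or a GTP-forming subunit, from Suclg2. Sucla2 had 66.6 TPM in replicate 1 and 60.5 TPM in replicate 2, and Suclg2 had 5.30 TPM in replicate 1 and 5.38 TPM in replicate 2. Nearly all RNA for the alternative subunits was therefore of the ATP-forming kind: Sucla2 made up 92.2% ± 0.57 of the pair. The common subunit gene Suclg1 had 59.5 TPM in replicate 1 and 54.6 TPM in replicate 2, a level close to that of Sucla2 (ratio of Suclg1 to Sucla2, 0.898 ± 0.0082).

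The cycle closes with fumarase and malate dehydrogenase. Fh1, the fumarase gene, had 31.3 TPM in replicate 1 and 29.4 TPM in replicate 2, under all of the cycle's genes named here but Idh2 and Suclg2. Mdh2, the mitochondrial malate dehydrogenase gene, had 163 TPM in replicate 1 and 157 TPM in replicate 2. Mdh1, which encodes the cytosolic enzyme of the malate-aspartate shuttle, had 281 TPM in replicate 1 and 271 TPM in replicate 2. It was the most abundant gene of this group, above Mdh2 by a ratio of 1.72 ± 0.0060.

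**Figure D2:**
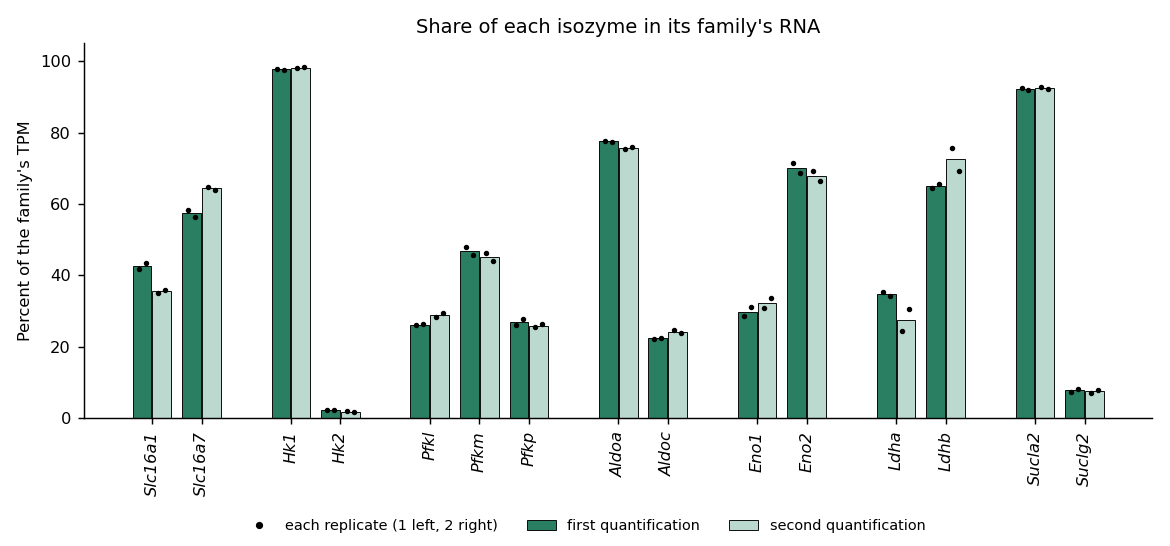
Share of each isozyme gene in the summed TPM of its family, in percent, for the first quantification (dark bars) and the second (pale bars), as means of 2 libraries with each library as a dot. Hk1 (97.7%), Sucla2 (92.2%) and Aldoa (77.6%) hold most of their families' RNA, and the leading gene of each family is the same in both quantifications.

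Across families, the leading isozyme was the same in both libraries and in both quantifications, as the bars of isozyme shares show. Eno1 is taken there without its similar genes. Hk1 and Sucla2 left their partners under 10% of the family's TPM in both. In the first quantification, Aldoa and Eno2 led by 3.47 and 2.35 to 1 and Ldhb by 1.87 to 1; in the second, Ldhb led by 2.69 ± 0.60 and Eno2 by 2.11 ± 0.19.

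Between the libraries, 0 of the 38 genes were over 1.2-fold apart, against 9.31% of the 12651 genes whose mean count reached 100. Most of the 38 had high counts: with a mean count of 500 or more, 0 of 36 were apart, against 3.46% of all such genes. Ratios here are replicate 1 over replicate 2 on counts scaled by TMM, a method that sets the bulk of genes to no difference. With 1 library on each side there was no test, and the values are described by size alone. The log2 ratio ran from -0.14 for Idh2 to 0.16 for Sucla2 and Idh3a. It was above 0 in 34 of 38 genes, against 55.5% of all compared genes, in 28 of 38 with scaling by total counts (44.7% of all) and in 0 of 38 with scaling by the ERCC spike-ins (3.26% of all). The median was 0.06 for the 38 genes and 0.02 for all genes compared. Spike-in scaling moved every gene down by 0.26 on the log2 scale, to medians of -0.20 for the 38 genes and -0.25 for all.

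The genes lower in replicate 1 with TMM scaling were Idh2, Hk2 (-0.12), Ldhb (-0.03) and Eno1 (-0.01). Their counting errors were 0.073, 0.124, 0.028 and 0.024 in that order, so of these only Idh2 had a ratio larger than its error. Highest beside Sucla2 and Idh3a (0.16 each) were Pgk1 (0.15), Suclg1 (0.15), Dlat (0.14), Idh3g (0.14) and Eno2 (0.14). By role, the median was 0.04 for transport, 0.05 for glycolysis, 0.02 for lactate dehydrogenase, 0.08 for pyruvate entry and 0.06 for the TCA cycle. Cell type markers also differed between the libraries, and not all in the same direction. With TMM scaling, all 10 neuronal markers were higher in replicate 1 (median 0.14; summed level 4180 TPM in replicate 1 and 3775 TPM in replicate 2), as were all 8 oligodendrocyte markers (median 0.35; 1598 TPM and 1220 TPM in replicates 1 and 2). With spike-in scaling the neuronal markers lay below 0 and the oligodendrocyte markers above it. Astrocyte markers had a median of 0.02 with TMM scaling, with 5 of 8 higher in replicate 1. All 7 choroid plexus markers compared were lower in replicate 1, with a median of -4.28. The part of these cell types in the small differences of the 38 genes was not tested.

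**Figure D3:**
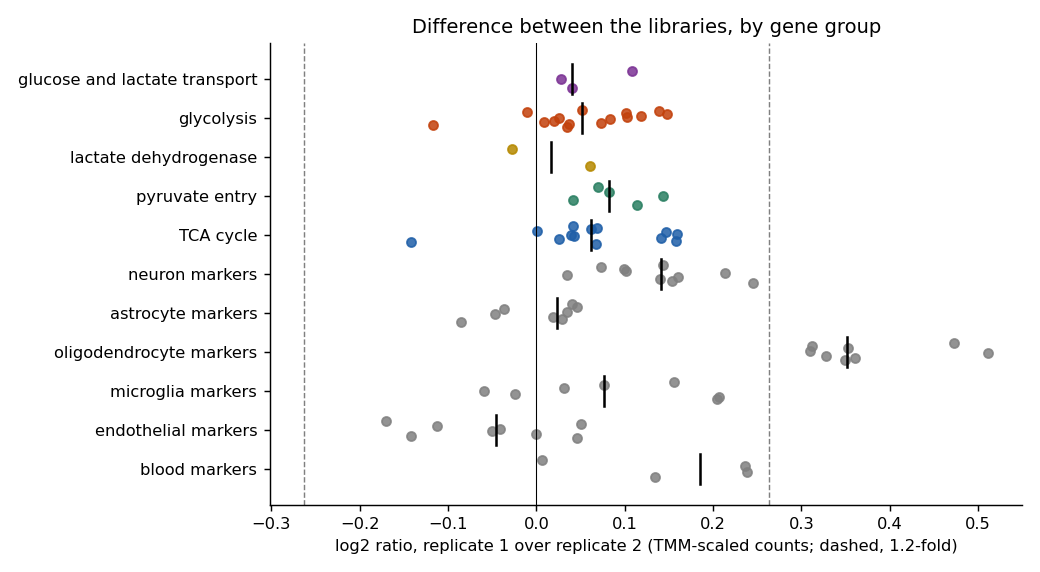
Log2 ratio of replicate 1 over replicate 2 on TMM-scaled counts, 1 point per gene, by role for the 38 genes (coloured) and for cell type markers (grey), with medians as black bars and dashed lines at 1.2-fold. All 38 genes lie between the dashed lines and 34 lie above 0, which spike-in scaling turns to 0 of 38, while all 8 oligodendrocyte markers lie beyond the upper line. Choroid plexus markers, with a median of -4.28, are off the axis and not drawn.

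The transcript that led a gene's TPM was the same in both quantifications for 27 of 35 genes with at least 2 transcripts and 10 TPM or more, against 75.7% of all such genes. The 8 others were Slc16a7, Hk1, Gpi1, Gapdh, Pkm, Ldhb, Pcx and Idh3a. These calls use the mean of the libraries. In each library alone the count was also 27 of 35 (75.4% of all such genes in replicate 1 and 75.2% in replicate 2), but not of the same genes: the lead differed in replicate 1 alone for Gpi1 and Ldha, and in replicate 2 alone for Idh3a and Fh1. For Hk1, the lead passed between coding transcripts: Hk1-202 took 64.8% of the TPM in replicate 1 and 56.6% in replicate 2 in the first quantification, and Hk1-205 took 37.0% in replicate 1 and 40.1% in replicate 2 in the second. Several genes rested on 1 transcript in both. Pgam1-201 took 99.9% and 99.6%, Pgk1-201 took 99.5% and 99.4%, and Cs-201 took 99.1% and 98.9% of their genes' TPM in replicates 1 and 2 of the first quantification, and led in both libraries of the second too.

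Some of the RNA was assigned to transcripts annotated as not coding for protein. Under 50% of the TPM lay on protein-coding transcripts for 2 of 36 genes at 10 TPM or more, Gpi1 (45.8%) and Gapdh (31.2%), against 9.69% of protein-coding genes at that level. The median coding share over the 38 genes was 92.5%. For Gpi1, the transcripts not annotated as coding included Gpi1-206, a nonsense-mediated decay transcript, at 16.3% in replicate 1 and 18.9% in replicate 2, and the retained-intron transcript Gpi1-211, at 13.99% in replicate 1 and 14.01% in replicate 2. Among TCA cycle genes, the nonsense-mediated decay transcripts Idh3a-204 and Mdh2-203 stood out. Idh3a-204 took 29.5% in replicate 1 and 28.5% in replicate 2, and Mdh2-203 took 32.9% in replicate 1 and 32.2% in replicate 2. The second quantification gave Idh3a-204 more, at 44.8% and 56.2% in replicates 1 and 2, and Mdh2-203 less, at 10.2% and 13.8%. There, the mean share on coding transcripts was under 50% in 5 of 36 genes, against 12.4% of protein-coding genes at that level: Dlst, Dlat, Gpi1, Fh1 and Idh3a. Of these, Fh1 (56.9% in replicate 1 and 34.2% in replicate 2) and Idh3a (53.8% in replicate 1 and 41.8% in replicate 2) were under 50% in replicate 2 alone.

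Gapdh was the clearest case. In the first quantification, Gapdh-208, a processed transcript of 483 bases, took 67.3% of the gene's TPM in replicate 1 and 68.4% in replicate 2. By counts it held less than Gapdh-201, the coding transcript of 1272 bases: 6030 against 8500 counts in replicate 1 and 5400 against 6911 in replicate 2. TPM divides counts by length, so a short transcript adds more to it per count. The second quantification gave both of these transcripts 0 counts. It placed the gene's counts on the coding transcripts Gapdh-203, with 18067 and 18622 counts, and Gapdh-207, of 471 bases, with 3731 and 3994 counts in replicates 1 and 2.

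The 2 quantifications also differed in gene counts for a few genes. Counts as a share of each library, first over second, differed by over 1.5-fold for 1 of the 38 genes, Gapdh, against 2.86% of 12538 genes compared. Gapdh had 15040 counts in replicate 1 and 13162 in replicate 2 in the first, against 25726 and 24758 in the second, a ratio of 0.566. In TPM the gap was wider, at 955 ± 53.0 TPM in the first and 3356 ± 343 TPM in the second. There, Gapdh and not Aldoa (1877 ± 22.5 TPM) was the highest of the 38 genes. The wider gap in TPM was not particular to Gapdh: the median of the 38 genes was 88.9 TPM in the first and 168 TPM in the second. Protein-coding genes held 44.3% and 42.7% of all TPM in replicates 1 and 2 of the first, against 79.2% and 78.4% in the second. Eno1 came next at 0.740, and the other 36 genes lay between 0.881 and 1.02. The order of the 38 levels was otherwise alike, with a Spearman rho of 0.984 between the quantifications, a description across genes that share libraries.

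Sequence shared with other genes differed among the 38. For each gene's coding transcript with the most counts, stretches of 100 bases were searched in the annotated transcripts of all other genes. The search was run for these 38 genes only. There is thus no share over all genes to set beside its counts, and whether they are many or few was not tested. In 27 genes no such stretch occurred elsewhere, and in 11 at least 1 did: 85.8% of stretches for Gapdh, 67.0% for Pgk1, 59.0% for Eno1, 39.7% for Pgam1, 16.1% for Suclg2, 10.5% for Pdhb, and under 10% for Pkm, Ldhb, Gpi1, Ldha and Tpi1. A count that is not whole marks reads divided between genes. Such counts occurred in 13 of the 38 genes, against 16.7% of all genes compared, and those 13 were the 11 just named with Pfkm and Cs. Values of these 13 genes are uncertain to that extent.

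Many of the genes with shared sequence were annotated as processed pseudogenes, copies of a spliced mRNA inserted elsewhere in the genome. Gapdh had 119 similar genes (at least 10% of its 31-base stretches), 115 of them pseudogenes. To show how little separates a gene from its copy, 90 coding bases of Gapdh, Eno1 and Pgk1 are set beside a pseudogene of each, from the GENCODE M21 transcripts (GRCm38), with capitals where the pair differs. Gapdh and Pgk1 are shown from the start codon and Eno1 around its first difference. The copies are Gm7336 (chr7:51746697-51746786, plus strand), Gm4735 (chr2:80837821-80837910, plus strand) and Gm5537 (chr3:58104158-58104247, minus strand).
Gapdh: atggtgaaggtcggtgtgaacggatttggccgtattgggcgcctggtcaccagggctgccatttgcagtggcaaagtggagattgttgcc
Gm7336: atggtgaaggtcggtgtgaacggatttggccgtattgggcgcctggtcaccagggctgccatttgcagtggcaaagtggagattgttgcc
Eno1: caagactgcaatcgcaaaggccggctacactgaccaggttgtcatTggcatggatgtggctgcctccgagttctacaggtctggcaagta
Gm4735: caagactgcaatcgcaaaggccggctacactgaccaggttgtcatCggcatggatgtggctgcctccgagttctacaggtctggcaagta
Pgk1: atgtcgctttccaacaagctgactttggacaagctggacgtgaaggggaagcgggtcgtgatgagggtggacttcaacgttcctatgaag
Gm5537: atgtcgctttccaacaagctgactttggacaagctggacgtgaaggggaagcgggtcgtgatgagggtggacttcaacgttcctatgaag
Over the whole coding sequence, Gm7336 differed from Gapdh at 0 of 999 bases and Gm5537 from Pgk1 at 0 of 1251 bases, and Gm4735 differed from Eno1 at 5 of 1302 bases.

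**Figure D4:**
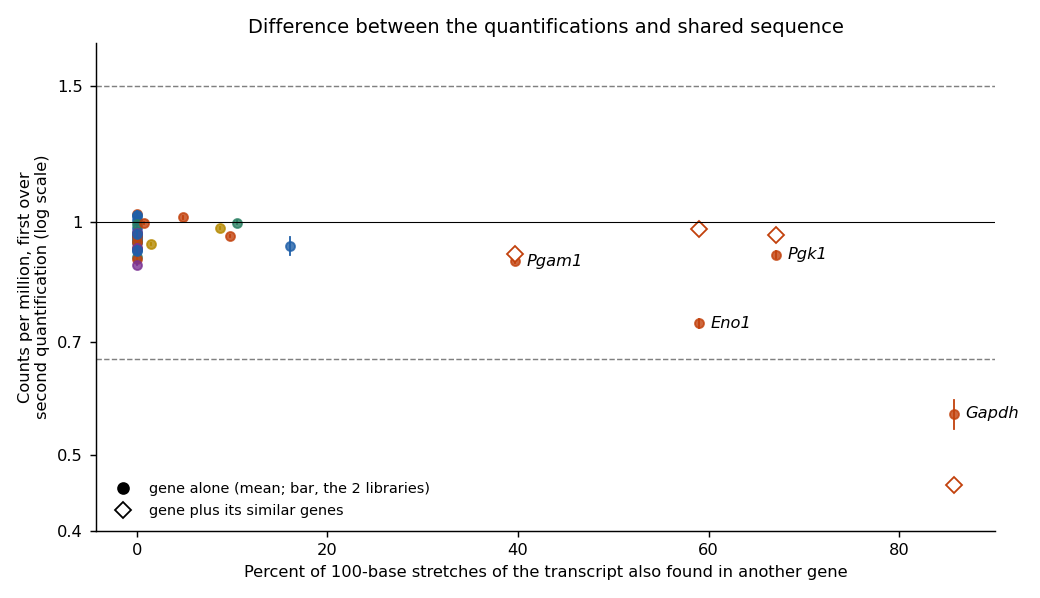
Counts as a share of the library, first quantification over second, on a log axis, against the percent of 100-base stretches of each gene's transcript that occur in another gene, 1 point per gene with a bar to each library; open diamonds add the similar genes' counts, and dashed lines mark 1.5-fold. The 27 genes at 0% lie between 0.881 and 1.02, while Eno1 (0.740) and Gapdh (0.566) lie lowest, and adding the similar genes moves Eno1 to 0.981 and Gapdh to 0.457.

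The quantifications divided the counts of a gene and its copies differently. Gm7336 received 173 counts in replicate 1 and 168 in replicate 2 in the first quantification, against 9362 and 8491 in the second. All 119 genes similar to Gapdh took 2581 and 2927 counts in replicates 1 and 2 of the first, against 13301 and 10895 in the second. Summing Gapdh with them did not bring the quantifications together: the ratio was 0.457 ± 0.0026 for the sum and 0.566 for Gapdh alone.

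For Eno1, the sum behaved otherwise. Eno1b, an annotated coding gene that shares 58.6% of the 100-base stretches, took 5947 and 5712 counts in replicates 1 and 2 of the first quantification, against 3968 and 4002 in the second. Gm4735 took 2154 and 1757 counts in the first, against 1823 and 1535 in the second. Eno1 itself had 7197 and 6885 counts in the first, against 9953 and 9336 in the second. The sum of Eno1 with its 4 similar genes gave a ratio of 0.981 ± 0.0012, so the quantifications differed by little in the total and by more in how it was divided. Gm5537 took 416 and 466 counts in the first quantification and 0 in both libraries of the second, and the ratio for Pgk1 was 0.908 alone and 0.962 ± 0.0036 with its similar genes.

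**Figure D5:**
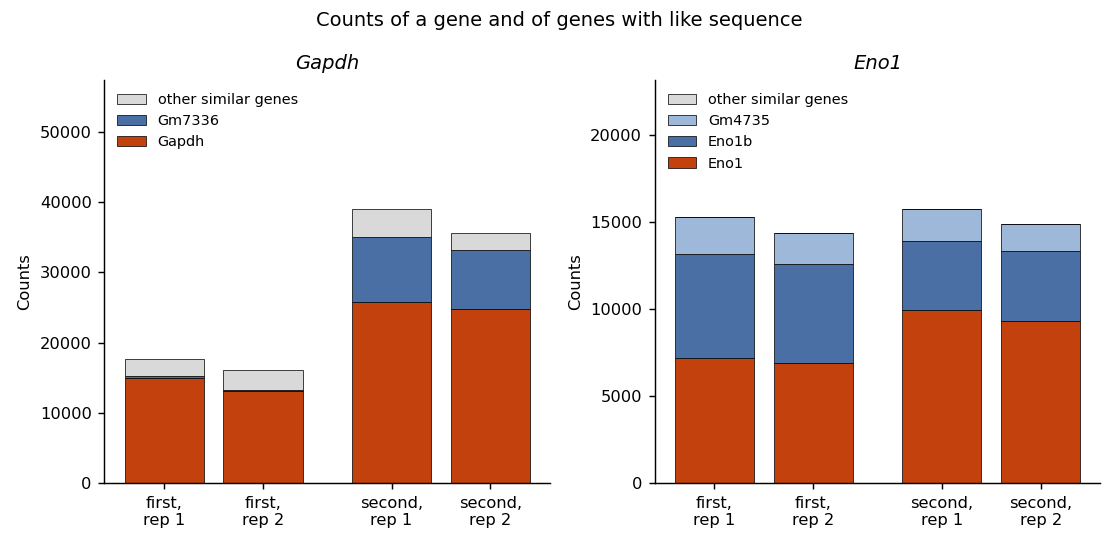
Counts of Gapdh (left) and Eno1 (right) stacked with those of genes with like sequence, by quantification and replicate, on linear axes. The stack for Gapdh is 17621 counts in replicate 1 of the first quantification and 39027 in that of the second; for Eno1 the stacks are 15298 and 15751, with a larger part on Eno1b in the first.

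Some of the genes overlap their neighbours. Exons of 11 of the 38 genes overlapped an exon of a gene on the opposite strand, against 30.9% of the genes with a mean count of at least 100. Whether counting used the strand is not given in the sources used here. Pfkp and Pitrm1, with 748 bases shared, had whole counts in both libraries, as did Pdha1 and Map3k15, with 603. By the mark of whole counts given above, no reads were divided within these pairs. Gm26762 shared 741 bases with Gpi1 and had 1 and 0 counts in replicates 1 and 2. How reads in the overlaps were assigned was not tested. The overlapping gene reached 10% of the member's count in 3 cases: Nop56 at 40.5% of Idh3b with 5 bases shared, Pitrm1 at 13.9% of Pfkp with 748 bases shared, and Iffo1 at 10.5% of Gapdh with 68 bases shared.

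Of 71 further genes of the same pathways, 57 were detected, with a median of 12.4 ± 0.35 TPM over all 71. Transport and accessory genes were led by Bsg, which encodes the chaperone of several monocarboxylate transporters, at 249 ± 6.44 TPM, then Slc2a1, the GLUT1 gene of the blood-brain barrier and glia, at 31.9 ± 2.03 TPM, and Slc2a13, the proton-myo-inositol transporter gene, at 29.2 ± 0.035 TPM. Slc2a3 was higher than Slc2a1 in both libraries. The other TCA cycle genes, all 12 detected, included the succinate dehydrogenase genes Sdha at 126 ± 4.62 TPM and Sdhc at 81.2 ± 0.23 TPM. Those of the reducing-equivalent shuttles, 7 of 7 detected, were led by the aspartate aminotransferase genes Got1 at 136 ± 8.32 TPM and Got2 at 83.0 ± 6.52 TPM and by the aspartate-glutamate carrier gene Slc25a12 at 60.8 ± 1.89 TPM.

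For pyruvate entry, 10 of 11 further genes were detected, with the mitochondrial pyruvate carrier genes Mpc2 at 57.2 ± 4.31 TPM and Mpc1 at 55.8 ± 1.31 TPM, and the pyruvate dehydrogenase kinase gene Pdk2 at 47.4 ± 1.46 TPM. Glycogen genes, 6 of 6 detected, were led by the brain glycogen phosphorylase gene Pygb at 80.5 ± 1.39 TPM and also held the muscle phosphorylase gene Pygm at 8.20 ± 1.26 TPM. In the pentose phosphate pathway, 7 of 7 were detected, led by the transketolase gene Tkt at 65.8 ± 2.11 TPM, the transaldolase gene Taldo1 at 46.5 ± 1.56 TPM and the epimerase gene Rpe at 15.4 ± 0.47 TPM. Regulators of fructose bisphosphate, 4 of 7 detected, were led by Pfkfb2 at 18.8 ± 0.52 TPM, Pfkfb3 at 16.7 ± 0.85 TPM and Tigar at 11.7 ± 1.41 TPM.

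The other glycolytic isozymes were the lowest group, with 6 of 13 detected. Bpgm, the bisphosphoglycerate mutase gene, stood at 26.4 ± 0.22 TPM, Pgam2, the muscle mutase, at 6.12 ± 0.29 TPM and Eno3, the muscle enolase, at 3.06 ± 0.13 TPM. Forms typical of liver, testis or blood, among them Pklr, Gapdhs, Pgk2, Ldhc and Hk3, were not detected at 1 TPM in both libraries. Between the libraries, 4 of the 71 genes were over 1.5-fold apart, all lower in replicate 1 by scaled counts and all low in counts. Eno3 had 58 counts in replicate 1 and 83 in replicate 2. Fbp1 had 3 counts in replicate 1 and 6 in replicate 2, and Fbp2 had 1 and 2. The counting errors of their log2 ratios were 0.96 and 1.49. By TPM, Fbp2 was higher in replicate 1, at 0.16 against 0.07. Slc16a8, a lactate transporter gene known from the choroid plexus and retinal pigment epithelium, had 0 counts in replicate 1 and 25 in replicate 2. Against a floor of 3 counts in replicate 1, it was at least 8.77-fold lower there, in the same direction as the choroid plexus markers.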

How the data were processed

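The authors deposited 3 tables per library on mm10 with GENCODE M21 annotation: a gene table and a first transcript table, both with expected counts and TPM, and another transcript table with estimated counts and TPM of a second quantification, as the file headers name them. The first of these transcript tables gives each transcript's percent of its gene's TPM, as deposited. The software is not given in the sources used here. A note deposited with each library gives the build and annotation, and derives the first quantification from alignments to the transcriptome and the second from 1 file of reads. Reads of both parental alleles were assigned to the reference annotation, and any effect of that on a level was not tested.

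The 38 genes and all lists were chosen with earlier results of these data known. Every one of the 38 is named; of the related genes, the 3 highest per group and any over 1.5-fold apart are named, except some that are not reported here. The 96 ERCC spike-ins and the numbered entries were left out of library sizes. Rounded expected counts were scaled by TMM, with edgeR 4.0.16 under R 4.3.3; log2 ratios used a prior count of 0.5 and genes whose mean count reached 100. DESeq2 1.42.0 gave alternative size factors. A count over 0.005 from a whole number was called not whole. Second-quantification counts and TPM were summed per gene. Sequences came from the GENCODE M21 transcripts, and tables were handled in Python 3.11.15 with pandas 2.3.3 and numpy 2.4.6. The ratio and sequence steps were tested on simulated data. With 1 group there was nothing to test between conditions, so no p-value is given. Other scalings, count minimums, folds and transcript sets were tried as alternatives.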

Additional observations from a re-analysis of the deposited data

Results flagged for a closer look

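The second gene entry named Aldoa (ENSMUSG00000114515.2, chromosome 7, 126800790 to 126809108, minus strand), which no comparison used, held a signal: 22 counts in replicate 1 and 28 in replicate 2, a mean of 25 counts, at levels of 1.42 and 1.89 TPM in replicates 1 and 2. In the second quantification it had 21 and 25 counts in replicates 1 and 2. The entry of that name used above had 35491 and 31818 counts.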

How the results depend on the processing

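With the second quantification the median level was 168 TPM for the 38 genes, 394 TPM for glycolysis and 132 TPM for the TCA cycle; with TPM rescaled to protein-coding genes it was 206, 489 and 164 TPM. The share of counts became 0.897% (second quantification) and 1.03% (of protein-coding counts). Between the libraries, 4 genes were over 1.2-fold apart with spike-in scaling, against 44.5% of all genes, and 8 were over 1.1-fold apart, against 29.4%. The median log2 ratio was 0.0296 with total counts and -0.20 with spike-in scaling. Isozyme shares moved by more than the library SD in these settings. With the second quantification they were Hk1 98.1%, Pfkm 45.2%, Pfkl 28.9%, Aldoa 75.7%, Eno1 32.2%, Ldha 27.5% and Slc16a1 35.6%. With counts, not divided by length, they were Hk1 97.4%, Pfkm 40.2%, Pfkp 29.9%, Pfkl 29.9%, Aldoa 73.3%, Ldha 43.4%, Sucla2 89.95% and Slc16a1 39.1%. With coding transcripts only they were Hk1 98.1%, Pfkm 53.4%, Pfkp 20.7%, Eno1 33.2% and Slc16a1 45.9%. The leading gene of each family was the same in all 3. Over 1.2-fold apart between quantifications were 2 genes (8.49% of all), over 2-fold 0 (1.53% of all). With a tolerance of 0.5 percent of the count, 0 genes had a count that was not whole, since every member had at least 266 counts. Pkm M1 took 47.0% in the second quantification. The cause was not tested for these changes. With 2 libraries, using either alone cannot move a mean beyond the SD, so it is no check; leading transcripts in each library alone were added after the data were seen; ratios between the libraries have no value with 1 left out. No paired analysis was possible because there is 1 group. Throughout, 2 libraries give a rough SD, and genes with copies depend on how reads were divided.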
